A study of Mus musculus with 16 samples.

Results

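A set of 7 genes that carry iron through the macrophage were followed across 16 libraries of adipose tissue macrophages (ATMs). The genes were taken by their symbols from the table of raw counts, which found all 7 among 37310 rows: Tfrc, Slc11a1 and Slc11a2 for uptake and transport, Hmox1 for the breakdown of heme, Fth1 and Ftl1 for storage, and Slc40a1 for export. The libraries were made from RNA of F4/80+ cells sorted from epididymal fat of male mice. All of these mice were fed a high-fat diet (HFD, 60% fat) and were 7 to 10 weeks old when the experiment began. WT mice were compared with IRF5-KO mice, in which Irf5 flox/flox alleles were crossed with LysM-Cre, so that the recombinase is driven by Lyz2 in cells of the myeloid lineage. The diet lasted 4 weeks (ST-HFD) or 12 weeks (LT-HFD) in each genotype, which gave 4 groups of 4 libraries. No mice on normal chow were among these libraries. The labels do not say whether a library came from 1 mouse or from a pool, while the study's legend gives n = 4 per genotype.

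Macrophages are the main recyclers of iron. Iron bound to transferrin enters through the transferrin receptor (Tfrc) and leaves the endosome through DMT1 (Slc11a2), while heme from engulfed cells is opened by heme oxygenase-1 (Hmox1), which frees its iron. Iron that is not used is stored in ferritin shells of heavy (Fth1) and light (Ftl1) chains, or leaves the cell through ferroportin (Slc40a1), the only known cellular iron exporter of mammals. Much of this system is set after transcription: iron regulatory proteins bind a hairpin, the iron-responsive element (IRE), and block translation when it lies in the 5′ UTR but protect the mRNA when it lies in the 3′ UTR. RNA levels as measured here therefore do not show the protein levels of ferritin or ferroportin.

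The hairpins found in the 7 genes are shown because their place in the message decides how iron regulatory proteins act on it. In the longest protein-coding transcript of each gene (GENCODE M21, GRCm38), an unpaired C, any 5 bases, the loop CAGTGN and 5 more bases were searched on the transcript strand, and the 5 bases before the loop had to pair with the 5 after it (Watson-Crick or G-T). Slc40a1, Fth1 and Ftl1 each held 1 match, in the 5′ UTR, and Tfrc held 4, all in the 3′ UTR. The capitals mark the 6 bases of the loop, and each sequence is 30 bases of 1 exon, read 5′ to 3′ on the strand of its gene.
Slc40a1 5′ UTR: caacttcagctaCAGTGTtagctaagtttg
Fth1 5′ UTR: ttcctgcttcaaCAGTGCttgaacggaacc
Ftl1 5′ UTR: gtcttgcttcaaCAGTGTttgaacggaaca
Tfrc 3′ UTR, match 1: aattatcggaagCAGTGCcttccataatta
Tfrc 3′ UTR, match 2: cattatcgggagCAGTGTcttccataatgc
Tfrc 3′ UTR, match 3: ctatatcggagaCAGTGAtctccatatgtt
Tfrc 3′ UTR, match 4: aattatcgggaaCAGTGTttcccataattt
The matches lie at chr1:45925464-45925493 (minus strand), chr19:9982732-9982761 (plus strand), chr7:45459778-45459807 (minus strand) and, for Tfrc (plus strand), at chr16:32631219-32631248, chr16:32631598-32631627, chr16:32631663-32631692 and chr16:32631710-32631739. These letters and pairs were not in the transcripts searched for Hmox1, Slc11a1 or Slc11a2, which says nothing of hairpins with a bulge in the stem or in other transcripts. Slc11a2 is known to have a transcript with an IRE in its 3′ UTR. Of 21901 transcripts searched in the same way, 272 (1.242%) held a match, and of the 66 other genes on the iron lists used below, only Keap1 did.

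The libraries held 3279332 to 4958131 counts each. The targeted gene did not check the genotype labels: Irf5 was 238 ± 23.2 CPM (counts scaled to the library total and by TMM factors; SD, n = 4) in WT and 262 ± 11.5 in the libraries labelled IRF5-KO on ST-HFD, and 193 ± 20.1 and 229 ± 26.5 on LT-HFD, so it was not lower in either set of libraries labelled IRF5-KO, and counts over a whole gene can include reads from exons outside a deletion. Every direction by genotype below rests on the labels. The macrophage markers (Adgre1, Csf1r, Cd68, Itgam, Mertk and Fcgr1) summed to 3820.2 to 4180.2 CPM on ST-HFD and 2629 to 3314 CPM on LT-HFD. Their members did not move together. By log2 fold change with duration, Csf1r fell in WT (-0.62 ± 0.12) and IRF5-KO (-0.88 ± 0.12), as did Itgam (-0.56 ± 0.13 and -0.59 ± 0.13), while Adgre1, which encodes F4/80, rose in IRF5-KO (0.46 ± 0.15, adjusted p = 0.0235), as did Fcgr1 (0.44 ± 0.16, adjusted p = 0.0445). The red cell markers Slc4a1 and Epb42 were at 0 in every library, and the summed red cell list reached at most 6.93 CPM. The libraries of the durations also stood apart in the share of counts taken by the 3 most abundant features, which rose from between 18.6 and 24.1% on ST-HFD to between 26.1 and 34.5% on LT-HFD. No batch is given in the labels, so a batch shared by the libraries of 1 duration cannot be told apart from the duration. The LT-HFD mice were also older when sampled, as the same starting age was given for all mice. Age cannot be told apart from the duration either.

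The ferritin genes were the most abundant of the 7, and the genes of transferrin uptake and export the least. Levels between genes were compared per length, as CPM per kb of the longest protein-coding transcript, averaged over the 16 libraries. On this scale Ftl1 stood at 1709 ± 201 (SD, n = 16) and Fth1 at 1051 ± 79.1. Hmox1 followed at 179 ± 34.8 and Slc11a1, the phagosomal metal transporter, at 115 ± 17.3. Slc40a1 (16.2 ± 11.2), Tfrc (12.4 ± 6.43) and Slc11a2 (6.51 ± 2.00) were lowest. Slc40a1 and Tfrc did not differ beyond their spread, and their order turned when the length of all annotated exons was used (6.08 against 9.79 CPM per kb).

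The genes also differed in how much they varied between libraries. Fth1 had a coefficient of variation (CV) of 7.53% over the 16 libraries, at percentile 0.649 of the 11560 genes tested over all libraries, whose median CV was 24.8%. Ftl1 (11.7%), Slc11a1 (15.1%) and Hmox1 (19.5%) were below that median as well. Slc11a2 (30.8%), Tfrc (51.9%) and Slc40a1 (68.8%, percentile 93.4) were above it. The depth behind these values also differed, as Fth1 had 4723 to 8231 counts per library while Slc40a1 had 60 to 433 and Slc11a2 50 to 202. Slc40a1 ranged 8.01-fold between its lowest and highest library in CPM, against 4.82-fold for Tfrc, 3.45-fold for Slc11a2 and 1.36-fold for Fth1.

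**Figure D1:**
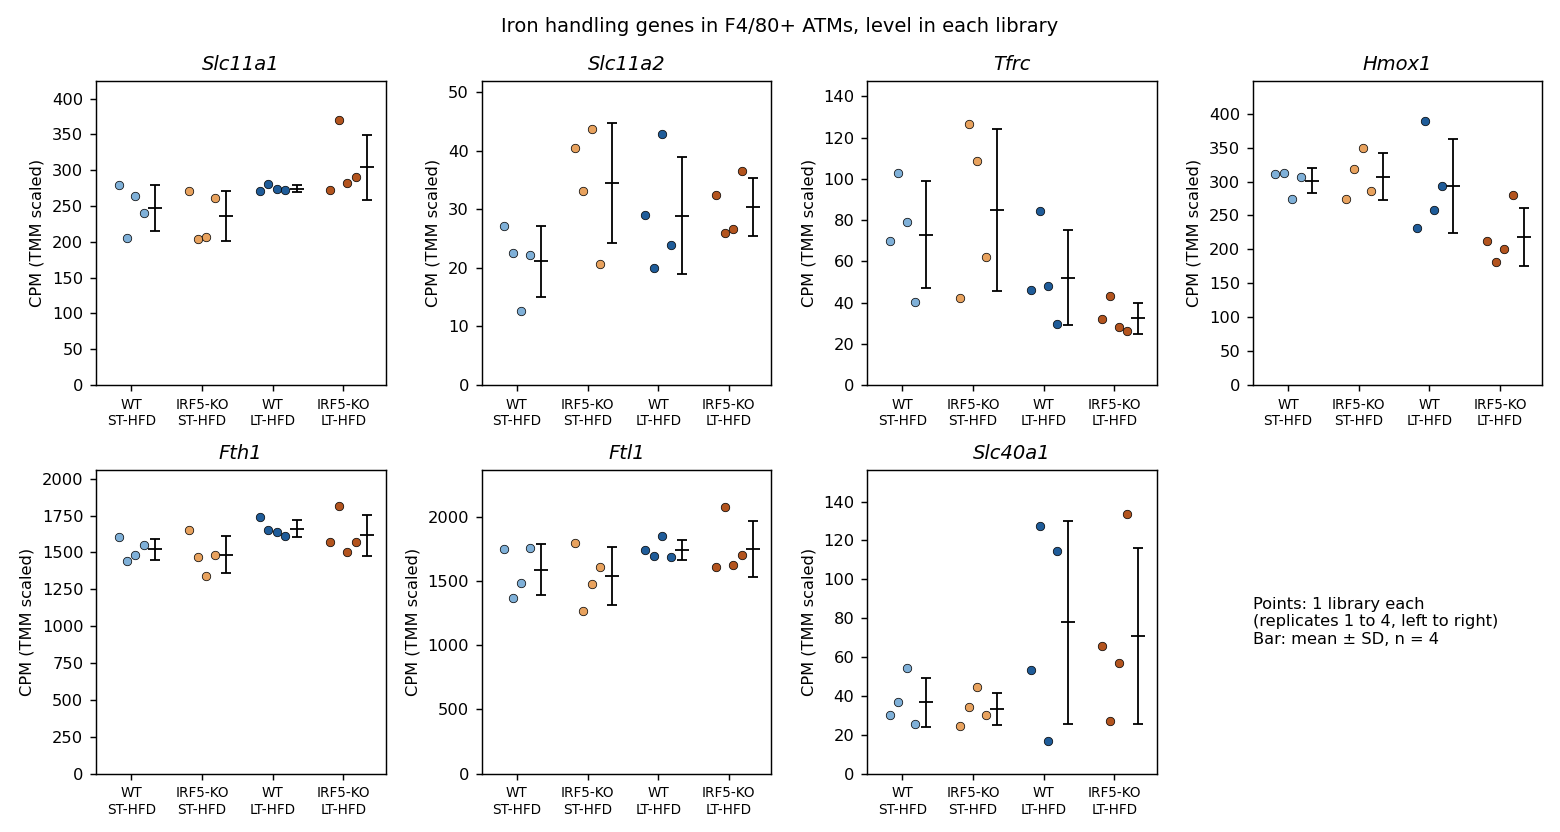
Level of each gene in each library, in CPM scaled by TMM factors, by group; points are libraries and bars are the mean ± SD of 4 libraries. The ferritin genes stay within a narrow band in all groups, the mean of Tfrc is lowest in the IRF5-KO LT-HFD group, and Slc40a1 spreads from 16.7 to 134 CPM on LT-HFD.

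Between genotypes, none of the 7 genes passed edgeR's quasi-likelihood test at either duration. On ST-HFD, 0 of 7 had an adjusted p under 0.05, where 1 of 10958 genes tested did (0.00913%, or 2 genes when same-numbered libraries were fitted as pairs), and 1 of 7 (Slc11a2) had an unadjusted p under 0.05, against 1.84% of all genes. On LT-HFD the counts were 0 of 7, where 2 of 10987 genes passed (0.0182%), and 2 of 7 (Hmox1 and Tfrc) at an unadjusted p, against 5.72% of all genes. DESeq2's Wald test also called 0 of 7 at both durations. The WT and IRF5-KO libraries overlapped in all 7 genes at both durations, while of all genes tested 1.47% did not overlap on ST-HFD and 3.01% did not on LT-HFD. The median log2 fold change (IRF5-KO minus WT) of the 7 genes was -0.04 at both durations, and 0.00 at both for all genes tested. On LT-HFD, 8 of 8 resident macrophage markers, named below, had fitted log2 fold changes by genotype under 0 (median -0.71, 5 at an edgeR unadjusted p under 0.05) and 7 of 8 lipid associated markers had values above 0 (median 0.52, 1 at an unadjusted p under 0.05). None of these passed the adjustment, and their part in the values of Hmox1 and Tfrc was not tested.

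Between durations, 3 of the 7 genes passed edgeR's test in the libraries labelled IRF5-KO and none did in WT. In IRF5-KO, Tfrc and Hmox1 fell and Slc11a1 rose from ST-HFD to LT-HFD. That is 3 of 7, where 32.8% of 11560 genes tested passed: 1 of 7 higher, against 15.6% of all genes, and 2 of 7 lower, against 17.2%. In WT the count was 0 of 7 by edgeR and by DESeq2, where 25.3% of genes passed by edgeR, and Slc40a1 was the only one of the 7 at an unadjusted p under 0.05. Groups that did not overlap were found for 1 of 7 genes in WT (Fth1, against 26.1% of all genes) and 1 of 7 in IRF5-KO (Slc11a1, against 29.4%). The interaction of genotype and duration, which tests whether the change with duration differed between genotypes, was called for 0 of 7 genes and for 0% of 11560 genes by edgeR, and for 0 of 7 and 0 genes by DESeq2. At an unadjusted p under 0.05 it held 0 of 7 genes in edgeR, against 3.93% of all genes, so the changes in IRF5-KO are not shown to differ from those in WT.

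**Figure D2:**
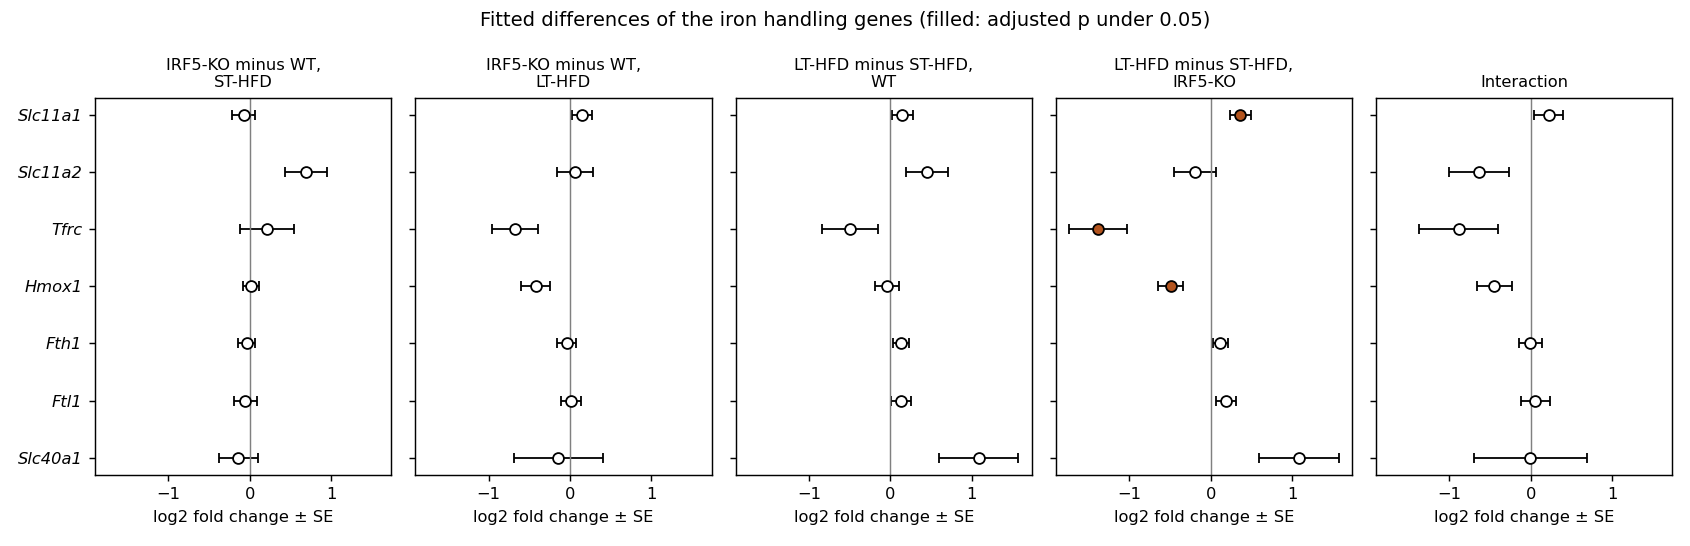
Fitted log2 fold change of each gene with its SE in the 5 comparisons, from edgeR's quasi-likelihood fits; filled points have an adjusted p under 0.05. The only filled points are Slc11a1, Tfrc and Hmox1 in the comparison of durations within IRF5-KO, and Slc40a1 has the widest SE in 4 of the 5 comparisons.

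These comparisons of duration rest on RNA from cell populations that differed in their markers, and in bulk RNA fewer cells of a type and less RNA per cell cannot be told apart. The 5 fibroblast markers (Pdgfra, Col1a1, Col3a1, Dpt and Dcn) summed to 821 to 935 CPM in WT ST-HFD and 2439 to 7269 CPM in WT LT-HFD, and to 566 to 1349 and 2449 to 5681 CPM in IRF5-KO. All 5 rose with duration in both genotypes. The 8 markers of resident macrophages (Timd4, Lyve1, Mrc1, Cd163, Folr2, Cbr2, Gas6 and F13a1) summed to 6369 to 9143 and 4474 to 8449.6 CPM in WT, and to 5425 to 9346 and 2458 to 5839 CPM in IRF5-KO. Of these, 2 of 8 fell in WT (Cd163 and Lyve1) and 6 of 8 in IRF5-KO. The 8 markers of lipid associated macrophages (Trem2, Cd9, Lpl, Spp1, Gpnmb, Itgax, Fabp5 and Lgals3) summed to 1251 to 5059.6 and 1943 to 5183 CPM in WT and to 1692 to 6407 and 2928 to 7195 CPM in IRF5-KO, with 0 of 8 and 2 of 8 higher by edgeR. In IRF5-KO, 1 of 2 neutrophil markers, 1 of 2 monocyte markers and 1 of 4 adipocyte markers that could be tested also fell. Of all genes tested, 25.3% passed in either direction in WT, and in IRF5-KO 15.6% were higher and 17.2% lower. Beside these shares, 2 of 8 lipid associated and 1 of 4 adipocyte markers do not stand apart. The part of these populations in the results by duration was not tested.

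Tfrc (ENSMUSG00000022797; chr16:32608920-32632794, plus strand), the receptor that takes up iron-loaded transferrin, fell on LT-HFD in the libraries labelled IRF5-KO. It was 42.3, 127, 109 and 62.0 CPM in IRF5-KO ST-HFD replicates 1 to 4 and 31.8, 43.1, 28.4 and 26.3 CPM in IRF5-KO LT-HFD. The lowest ST-HFD library and the highest LT-HFD library met at about the same level, and the other 3 ST-HFD libraries were above all LT-HFD libraries. The log2 fold change was -1.38 ± 0.35 (SE; adjusted p = 0.00619), and it passed in all 16 alternative fits, with values from -1.61 to -1.13. In WT the level was 69.9, 103, 78.9 and 40.3 CPM on ST-HFD and 46.1, 84.2, 48.1 and 29.6 CPM on LT-HFD, with a log2 fold change of -0.49 ± 0.34 (adjusted p = 0.326). The difference between these changes was -0.89 ± 0.49 on the log2 scale (edgeR unadjusted p = 0.0872, adjusted p = 0.969). By genotype, Tfrc differed by 0.21 ± 0.33 on ST-HFD and by -0.68 ± 0.28 on LT-HFD (edgeR unadjusted p = 0.0330, adjusted p = 0.853). Without WT LT-HFD replicate 2, the highest WT library on LT-HFD, this LT-HFD value was -0.35, the change in WT was -0.82 and the difference between the changes was -0.57. Over all fits with 1 library left out, the change in WT ran from -0.82 to -0.29.

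Slc11a1 (ENSMUSG00000026177; chr1:74375195-74386062, plus strand) encodes NRAMP1, which moves divalent metals out of the phagosome, and it rose on LT-HFD in the libraries labelled IRF5-KO. It was 270.5, 204, 207 and 261 CPM in IRF5-KO ST-HFD and 273, 371, 282 and 290.1 CPM in IRF5-KO LT-HFD. All LT-HFD libraries were above all ST-HFD libraries, though the nearest of them were close. The log2 fold change was 0.37 ± 0.12 (adjusted p = 0.0321). It was 0.30 without IRF5-KO ST-HFD replicate 2 (adjusted p = 0.108), 0.31 without ST-HFD replicate 3 (adjusted p = 0.105) and 0.25 without LT-HFD replicate 2 (adjusted p = 0.128), and it also lost the call with no filter on low counts (adjusted p = 0.0711) and with the 8 IRF5-KO libraries fitted alone (adjusted p = 0.0615). In WT the level was 279, 205, 264 and 240.5 CPM on ST-HFD and 270.3, 281, 273 and 272 CPM on LT-HFD, with the 4 LT-HFD libraries close together. The change in WT was 0.15 ± 0.12 (adjusted p = 0.425), and by genotype the differences were -0.08 ± 0.14 after 4 weeks and 0.14 ± 0.12 after 12 weeks. The changes differed by 0.22 ± 0.18 (adjusted p = 0.969). With 1 library left out, the change in WT ran from 0.068 to 0.22, the genotype differences from -0.16 to -0.0058 and from 0.027 to 0.20, and the difference between the changes from 0.11 to 0.30.

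Slc11a2 (ENSMUSG00000023030; chr15:100387898-100425072, minus strand), which carries iron out of the endosome after transferrin uptake, was the gene with the largest fitted difference by genotype on ST-HFD among the 7. It was 27.1, 22.5, 12.7 and 22.2 CPM in WT ST-HFD and 40.5, 33.2, 43.7 and 20.7 CPM in IRF5-KO ST-HFD. A set of 3 IRF5-KO libraries were above all WT libraries, and the fourth was below 3 of them. The log2 fold change was 0.69 ± 0.25 with an edgeR unadjusted p of 0.0197 and an adjusted p of 0.9998, so it did not pass. On LT-HFD the levels were 29.0, 19.9, 42.8 and 23.9 CPM in WT and 32.3, 26.0, 26.7 and 36.5 CPM in IRF5-KO, a difference of 0.06 ± 0.22. The change with duration was 0.45 ± 0.26 in WT and -0.19 ± 0.26 in IRF5-KO, and these differed by -0.64 ± 0.37 (adjusted p = 0.969). With 1 library left out these values ran from 0.20 to 0.60, from -0.37 to -0.06 and from -0.83 to -0.39. Gm5475 overlaps Slc11a2 on the opposite strand, and with the strand setting of the counting not given in the sources used here, reads of both cannot be told apart.

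Hmox1 (ENSMUSG00000005413; chr8:75093621-75100589, plus strand), the enzyme that frees iron from heme, fell on LT-HFD in the libraries labelled IRF5-KO. It was 274, 319, 350.0 and 286 CPM in IRF5-KO ST-HFD and 213, 182, 201 and 280.2 CPM in IRF5-KO LT-HFD. Replicate 4 of LT-HFD lay within the ST-HFD libraries and the other 3 were below all of them. The log2 fold change was -0.49 ± 0.15 (adjusted p = 0.0211). It lost the call without IRF5-KO ST-HFD replicate 3 (-0.42, adjusted p = 0.0683), LT-HFD replicate 2 (-0.41, adjusted p = 0.0668) or LT-HFD replicate 3 (-0.45, adjusted p = 0.0609), and with upper quartile factors (-0.38, adjusted p = 0.0589). In WT, Hmox1 was 311, 313, 274 and 307 CPM on ST-HFD and 231, 389.6, 258 and 294 CPM on LT-HFD. The WT libraries spread more on LT-HFD (SD 69.4 against 18.5 CPM) around nearly the same mean. The fitted change in WT was -0.04 ± 0.15 (adjusted p = 0.873). The difference between the changes was -0.45 ± 0.22 (edgeR unadjusted p = 0.0538, adjusted p = 0.969). By genotype, Hmox1 differed by 0.02 ± 0.10 on ST-HFD and by -0.42 ± 0.18 on LT-HFD (edgeR unadjusted p = 0.0349, adjusted p = 0.853). Without WT LT-HFD replicate 2 the LT-HFD value was -0.26, the change in WT was -0.21 and the difference between the changes was -0.28.

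The ferritin genes varied least between libraries and passed no test by genotype, by duration or of the interaction. Fth1 (ENSMUSG00000024661; chr19:9980598-9985098, plus strand) is the heavy chain with ferroxidase activity. In WT it was 1606, 1442, 1486 and 1550.4 CPM after 4 weeks and 1742, 1650.2, 1638 and 1609.7 CPM after 12 weeks of HFD. These did not overlap, but the highest ST-HFD and the lowest LT-HFD library were next to each other. In IRF5-KO it was 1650.2, 1468, 1338 and 1486 CPM after 4 weeks and 1568, 1816, 1505 and 1571 CPM after 12 weeks, with overlap. By duration, Fth1 differed by 0.13 ± 0.10 on the log2 scale in WT (adjusted p = 0.381) and 0.12 ± 0.10 in IRF5-KO (adjusted p = 0.365). The difference by genotype was -0.04 ± 0.11 after 4 weeks and -0.04 ± 0.11 after 12 weeks. With 1 library left out, the change by duration ran from 0.099 to 0.16 in WT and from 0.057 to 0.17 in IRF5-KO. The difference by genotype after 12 weeks then ran from -0.11 to -0.0042.

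Ftl1 (ENSMUSG00000050708; chr7:45457944-45459884, minus strand), the light chain that seeds the iron core, was 1752, 1366, 1482 and 1755 CPM in WT after 4 weeks and 1737, 1692, 1848 and 1684 CPM after 12 weeks. In IRF5-KO it was 1799.6, 1266, 1476 and 1609 CPM after 4 weeks and 1606, 2072, 1625 and 1704 CPM after 12 weeks. Its groups overlapped in every comparison. By duration, Ftl1 differed by 0.13 ± 0.13 on the log2 scale in WT (adjusted p = 0.494) and 0.19 ± 0.13 in IRF5-KO (adjusted p = 0.272). With 1 library left out, these ran from 0.063 to 0.19 in WT and from 0.095 to 0.27 in IRF5-KO. The difference by genotype was -0.05 ± 0.14 after 4 weeks and 0.01 ± 0.12 after 12 weeks. Within each library the ratio of Fth1 to Ftl1 counts, which does not depend on scaling, lay between 0.876 and 1.16. Ferritin pseudogenes listed in the table held at most 25 counts in any library, and adding them changed no call of Fth1 or Ftl1, while reads of pseudogenes assigned to the parent genes cannot be seen. Ftl1 shares its bounds with Gm22133 on its own strand and Gm10252 on the other.

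Slc40a1 (ENSMUSG00000025993; chr1:45908068-45926523, minus strand), the exporter ferroportin, had a mean on LT-HFD above that on ST-HFD in both genotypes but did not pass the test, and its LT-HFD libraries scattered widely. It was 30.4, 36.9, 54.1 and 25.4 CPM in WT ST-HFD and 53.2, 128, 16.7 and 115 CPM in WT LT-HFD. In IRF5-KO it was 24.5, 34.5, 44.4 and 30.3 CPM on ST-HFD and 65.5, 27.1, 57.0 and 134 CPM on LT-HFD. In WT LT-HFD, replicate 3 was below all ST-HFD libraries while replicates 2 and 4 were far above them, and in IRF5-KO LT-HFD only replicate 2 lay within the ST-HFD range. The log2 fold change was 1.09 ± 0.49 in WT (edgeR unadjusted p = 0.0384, adjusted p = 0.115) and 1.08 ± 0.49 in IRF5-KO (edgeR unadjusted p = 0.0408, adjusted p = 0.100). It passed without WT LT-HFD replicate 3 (1.42, adjusted p = 0.0162) and without IRF5-KO LT-HFD replicate 2 (1.35, adjusted p = 0.0425), and with no filter on low counts in WT (adjusted p = 0.0414) and IRF5-KO (adjusted p = 0.0366). In the other direction, it was 0.75 in WT without LT-HFD replicate 2 (adjusted p = 0.320) and 0.58 in IRF5-KO without LT-HFD replicate 4 (adjusted p = 0.385). By genotype the differences were -0.14 ± 0.24 on ST-HFD and -0.14 ± 0.54 on LT-HFD, and the difference between the changes was -0.01 ± 0.69. The fibroblast markers, given above, rose between the same libraries.

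The RNA of export relative to uptake was read as the ratio of Slc40a1 to Tfrc counts within a library, which does not show the balance of the proteins. This ratio needs no scaling but was taken between genes of different lengths, so that only its changes between libraries have a meaning. In WT it was 0.436, 0.359, 0.686 and 0.631 after 4 weeks and 1.15, 1.51, 0.347 and 3.87 after 12 weeks. In IRF5-KO it was 0.578, 0.272, 0.409 and 0.488 after 4 weeks and 2.06, 0.629, 2.01 and 5.09 after 12 weeks. In IRF5-KO all LT-HFD libraries were above all ST-HFD libraries, with replicate 2 just above the highest of them. In WT, 3 LT-HFD libraries were above all ST-HFD libraries and replicate 3 was below all of them. On the log2 scale the mean was -0.97 ± 0.44 (SD, n = 4) and 0.31 ± 1.43 in WT, and -1.25 ± 0.47 and 0.93 ± 1.24 in IRF5-KO. No test was fitted to this ratio.

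**Figure D3:**
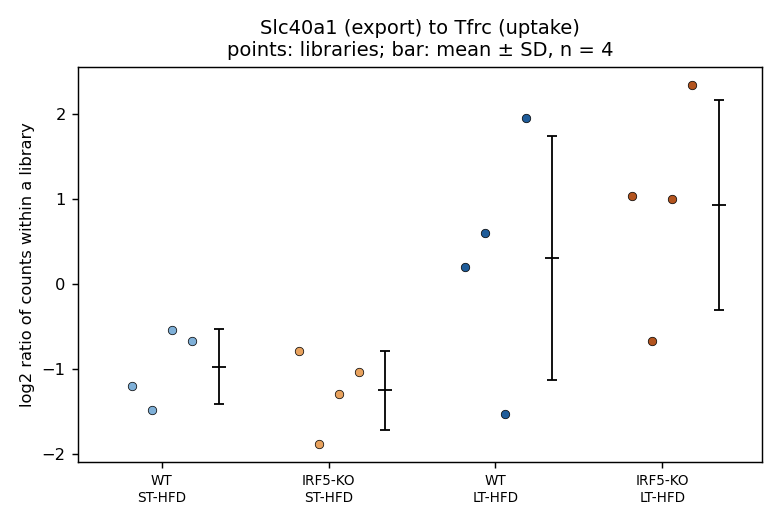
log2 ratio of Slc40a1 to Tfrc counts within each library, by group; points are libraries, and bars are the mean ± SD of 4 libraries. The IRF5-KO LT-HFD libraries are all above the IRF5-KO ST-HFD libraries, and WT LT-HFD replicate 3 is the lowest of the WT libraries.

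Of the other genes of the iron pathway, 10 in WT and 14 in IRF5-KO changed with duration and none passed by genotype. On the lists of heme breakdown and uptake, iron uptake, storage, export, sensing, mitochondrial iron, heme synthesis, heme-responsive regulators and NRF2 targets, 66 genes were listed besides the 7. By genotype, 0 of 53 tested passed on ST-HFD by edgeR (0.00913% of all genes did) and 0 of 56 on LT-HFD (0.0182% of all genes), and 0 by DESeq2. At an edgeR unadjusted p under 0.05 there were 3 of 53 and 5 of 56, against 1.84% and 5.72% of all genes. By duration, 10 of 56 changed in WT, 7 higher and 3 lower, and 14 of 56 in IRF5-KO, 10 higher and 4 lower. Both shares are below those of all genes tested (25.3% in WT and 32.8% in IRF5-KO). The median log2 fold change of the 56 genes was 0.09 in WT and 0.16 in IRF5-KO, beside 0.02 and 0.04 for all genes. The interaction was called for 0 of 56 by edgeR and by DESeq2, and by edgeR for 0% of all genes. At an edgeR unadjusted p under 0.05 it held 1 of 56, against 3.93% of all genes.

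Of 5 tested genes on the list of heme and hemoglobin uptake, 2 fell with duration in both genotypes, and 1, Flvcr1, a heme exporter that stands on this list, rose in IRF5-KO, where 25.3% of all genes passed in WT and 32.8% in IRF5-KO. Lrp1, the receptor of heme bound to hemopexin, was 2198 ± 358 CPM in WT ST-HFD and 740.3 ± 172 CPM in WT LT-HFD, and 2264 ± 708 and 965 ± 161 CPM in IRF5-KO. Its log2 fold changes were -1.57 ± 0.22 in WT (adjusted p = 5.13e-05) and -1.23 ± 0.22 in IRF5-KO (adjusted p = 0.000325). Cd163, the receptor of hemoglobin bound to haptoglobin and also one of the resident markers, was 1214 ± 335 and 631 ± 195 CPM in WT and 1229 ± 338 and 339.6 ± 194 CPM in IRF5-KO. It changed by -0.94 ± 0.33 in WT (adjusted p = 0.0440) and by -1.86 ± 0.34 in IRF5-KO (adjusted p = 0.000482). The call in WT was lost in 6 of the 8 fits that left out 1 WT library, with values from -1.13 to -0.77, and under upper quartile factors (adjusted p = 0.0595) or the replicate block (adjusted p = 0.0520).

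The genes that rose in both genotypes were Steap4, Steap3, Steap2 and Heph. Steap4, a metalloreductase, went from 11.5 ± 1.20 to 78.7 ± 46.6 CPM in WT (2.78 ± 0.40) and from 11.1 ± 4.23 to 82.4 ± 34.8 CPM in IRF5-KO (2.89 ± 0.40). Steap3, the ferrireductase of the transferrin cycle, rose by 0.89 ± 0.20 and 0.97 ± 0.20 on the log2 scale. Heph, a membrane ferroxidase that works with ferroportin, rose by 3.23 ± 0.64 and 2.63 ± 0.58 from means of 0.655 and 1.21 CPM, with 1 to 12 counts per ST-HFD library. Steap2 was also called in both genotypes, but it held 0 or 1 count in each WT ST-HFD library and at most 24 counts in any library, so no fold change is given. The fibroblast markers rose in the same comparisons, as given above.

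The remaining genes passed in 1 genotype each, and no interaction passed. In WT, Cp (ceruloplasmin, a ferroxidase) rose by 1.40 ± 0.28, Slc39a14 (the metal importer ZIP14) by 0.81 ± 0.21 and Abcb10 (a mitochondrial transporter) by 0.73 ± 0.20, while Keap1, the inhibitor of NRF2, changed by -0.38 ± 0.12. In IRF5-KO the values of these genes were 0.50 ± 0.28, 0.28 ± 0.21, 0.21 ± 0.20 and -0.08 ± 0.12. In IRF5-KO the antioxidant NRF2 targets Prdx1 (0.69 ± 0.15) and Gsr (0.56 ± 0.15) rose, as did Fbxl5 (0.55 ± 0.16), the iron sensor that targets IRP2 for breakdown, and Slc25a37, the mitochondrial iron importer, changed by -0.92 ± 0.20. In WT these 4 genes had values of 0.39 ± 0.15, 0.23 ± 0.15, 0.43 ± 0.16 and -0.38 ± 0.20. Keap1 lost its call in 4 of the fits that left out 1 WT library (from -0.36 to -0.34), with upper quartile factors (-0.30, adjusted p = 0.0768) and with no filter on low counts (-0.40, adjusted p = 0.0667). Fbxl5 lost it without IRF5-KO ST-HFD replicate 2 (0.46) or LT-HFD replicate 2 (0.47). The 4 other genes that passed in IRF5-KO, beyond the 10 with the smallest p, were Fech (0.34 ± 0.11), the enzyme that puts iron into heme, Glrx5 (0.54 ± 0.19), Flvcr1 (0.62 ± 0.21) and Pcbp1 (-0.37 ± 0.13), an iron chaperone. Without IRF5-KO LT-HFD replicate 2, 9 rather than 14 pathway genes passed in IRF5-KO.

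**Figure D4:**
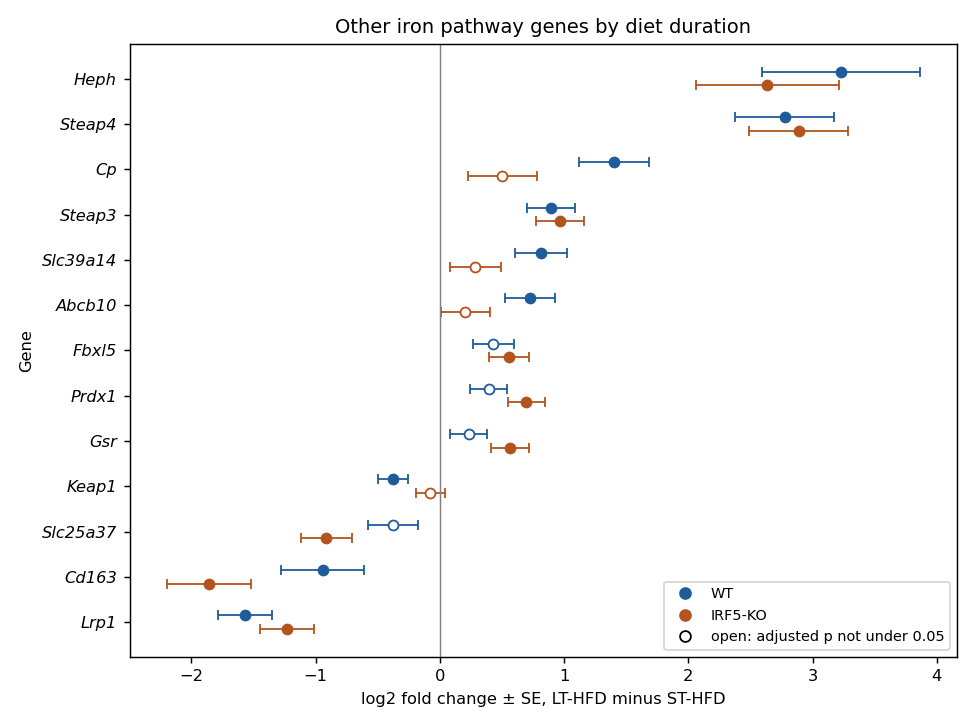
log2 fold change with SE between durations (LT-HFD minus ST-HFD) for the iron pathway genes with the smallest p in either genotype, in WT and IRF5-KO; filled points have an adjusted p under 0.05 and Steap2 is left out for its low counts. Heph, Steap4 and Steap3 are filled on the right in both genotypes and Lrp1 and Cd163 on the left.

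Across the 16 libraries, Hmox1, Tfrc, Slc11a1 and Ftl1 followed the markers of a macrophage type by Pearson's r and by Spearman's rho, and Fth1 by r alone. These relations were taken on the log2 scale in a family of 49 (the pairs of the 7 genes, and each gene with 4 marker sums), and again within the 8 libraries of each duration. Other marker sums were left out of the family and not tested. With them, r of Hmox1 ran from -0.08 (endothelial) to 0.75 (dendritic), and r of Slc11a1 from -0.73 (monocyte) to 0.10 (lymphocyte). The relations are therefore not shown to be particular to markers of a macrophage type. Over all libraries, 19 of the 49 passed the adjusted permutation test by r but 7 by rho. How many of all genes would pass against the same marker sums was not counted, so these counts are not shown to be particular to iron genes. Within LT-HFD, 0 passed by r and 0 by rho, with 5 at an unadjusted permutation p under 0.05 by r. The permutations treat libraries as independent, while same-numbered ST-HFD libraries were taken as pairs, so p-values over all libraries may be too small, and values within ST-HFD are given with no p.

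Hmox1 rose with the summed resident markers, with r = 0.88 (permutation p = 1e-05, the smallest that 100000 resamples can give; adjusted p = 0.000490) and rho = 0.85 (permutation p = 8e-05, adjusted p = 0.00147). Leaving out the 2 libraries whose marker sum was farthest from its median, r was 0.76. Within ST-HFD r was 0.63 and within LT-HFD 0.89 (exact permutation p = 0.00397, adjusted p = 0.124). Tfrc rose with the resident markers as well, with r = 0.72 (permutation p = 0.00139, adjusted p = 0.00973), rho = 0.80 (permutation p = 0.000250, adjusted p = 0.00306) and r = 0.85 without the farthest 2. This relation was 0.95 within ST-HFD and 0.35 within LT-HFD (exact permutation p = 0.389), so it did not hold within LT-HFD. Slc11a1 went the other way, with r = -0.79 (permutation p = 0.000290, adjusted p = 0.00237), rho = -0.74 (permutation p = 0.00178, adjusted p = 0.0174) and r = -0.64 without the farthest 2. It was -0.73 within ST-HFD and -0.70 within LT-HFD (exact permutation p = 0.0727).

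The ferritin genes were higher where the lipid associated markers were higher. For Ftl1 r was 0.80 (permutation p = 9e-05, adjusted p = 0.00208), rho was 0.84 (permutation p = 5e-05, adjusted p = 0.00147) and r was 0.68 without the farthest 2. Within ST-HFD it was 0.94 and within LT-HFD 0.61 (exact permutation p = 0.106). With the resident markers Ftl1 had r = -0.72 (permutation p = 0.00178, adjusted p = 0.0109) and rho = -0.68 (permutation p = 0.00526, adjusted p = 0.0430), with r = -0.71 without the farthest 2, -0.87 within ST-HFD and -0.57 within LT-HFD (exact permutation p = 0.144). For Fth1 and the lipid associated markers r was 0.59 (permutation p = 0.0155, adjusted p = 0.0399) and rho 0.58 (permutation p = 0.0194, adjusted p = 0.0595), with r = 0.48 without the farthest 2, 0.80 within ST-HFD and 0.34 within LT-HFD (exact permutation p = 0.416). With the resident markers Fth1 had r = -0.63 (permutation p = 0.00922, adjusted p = 0.0313) and rho = -0.62 (permutation p = 0.0118, adjusted p = 0.0576), with r = -0.62 without the farthest 2, -0.82 within ST-HFD and -0.23 within LT-HFD (exact permutation p = 0.591). Neither relation of Fth1 passed by rho.

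For Slc40a1, pooled and within-duration values differed for the resident and fibroblast markers. Over all libraries it had an r of 0.15 with the resident markers (permutation p = 0.574) and a rho of 0.11 (permutation p = 0.683), while within ST-HFD r was 0.66 and within LT-HFD 0.68 (exact permutation p = 0.0627). With the fibroblast markers its r was 0.62 (permutation p = 0.0113, adjusted p = 0.0313) and its rho 0.61 (permutation p = 0.0144, adjusted p = 0.0576), with r = 0.52 without the farthest 2, 0.10 within ST-HFD and 0.60 within LT-HFD (exact permutation p = 0.118), so it passed by r only and not within LT-HFD. With the lipid associated markers its r was -0.48 (permutation p = 0.0605, adjusted p = 0.134) and its rho -0.59 (permutation p = 0.0180, adjusted p = 0.0595), with r = -0.75 without the farthest 2, -0.63 within ST-HFD and -0.86 within LT-HFD (exact permutation p = 0.00766, adjusted p = 0.125), negative throughout and past no adjusted test.

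Among the 7 genes themselves, the largest r were those among the ferritin chains and Slc11a1. Fth1 and Ftl1 had r = 0.81 (permutation p = 0.000170, adjusted p = 0.00208), rho = 0.83 (permutation p = 9e-05, adjusted p = 0.00147), r = 0.86 without the farthest 2, 0.71 within ST-HFD and 0.82 within LT-HFD (exact permutation p = 0.0117). Ftl1 and Slc11a1 had r = 0.85 (permutation p = 0.000130, adjusted p = 0.00208), rho = 0.60 (permutation p = 0.0153, adjusted p = 0.0576), r = 0.69 without the farthest 2, 0.79 within ST-HFD and 0.81 within LT-HFD (exact permutation p = 0.0805), and did not pass by rho. Fth1 and Slc11a1 had r = 0.80 (permutation p = 0.000290, adjusted p = 0.00237), rho = 0.66 (permutation p = 0.00673, adjusted p = 0.0471), r = 0.72 without the farthest 2, 0.76 within ST-HFD and 0.60 within LT-HFD (exact permutation p = 0.143). Within LT-HFD rho was 0.29 for Ftl1 and Slc11a1 and close to 0 for Fth1 and Slc11a1, and IRF5-KO LT-HFD replicate 2 was the highest of the 8 libraries in all 3 genes. All points share the scaling of their library, and the pooled values hold the difference between durations.

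The 8 other relations that passed by r passed neither by rho nor, after adjustment, within LT-HFD. Tfrc was lower where the fibroblast markers were higher (r = -0.67, adjusted permutation p = 0.0281, and -0.70 within LT-HFD), and its r within ST-HFD was 0.30. With the lipid associated markers, Hmox1 went down (r = -0.64, adjusted permutation p = 0.0313, and -0.87 within LT-HFD) and Slc11a1 up (r = 0.68, adjusted permutation p = 0.0140, and 0.56 within LT-HFD). Fth1 passed with the red cell sum (r = -0.62, adjusted permutation p = 0.0313, and -0.44 within LT-HFD), whose level was given above. Hmox1 went with Tfrc (r = 0.61, adjusted permutation p = 0.0313, and 0.48 within LT-HFD) and against Slc11a1 (r = -0.62, adjusted permutation p = 0.0313, and -0.46 within LT-HFD). Tfrc went against Slc11a1 (r = -0.63, adjusted permutation p = 0.0303, and 0.05 within LT-HFD) and Ftl1 (r = -0.62, adjusted permutation p = 0.0313, and 0.28 within LT-HFD) over all libraries, and neither of these held within LT-HFD.

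**Figure D5:**
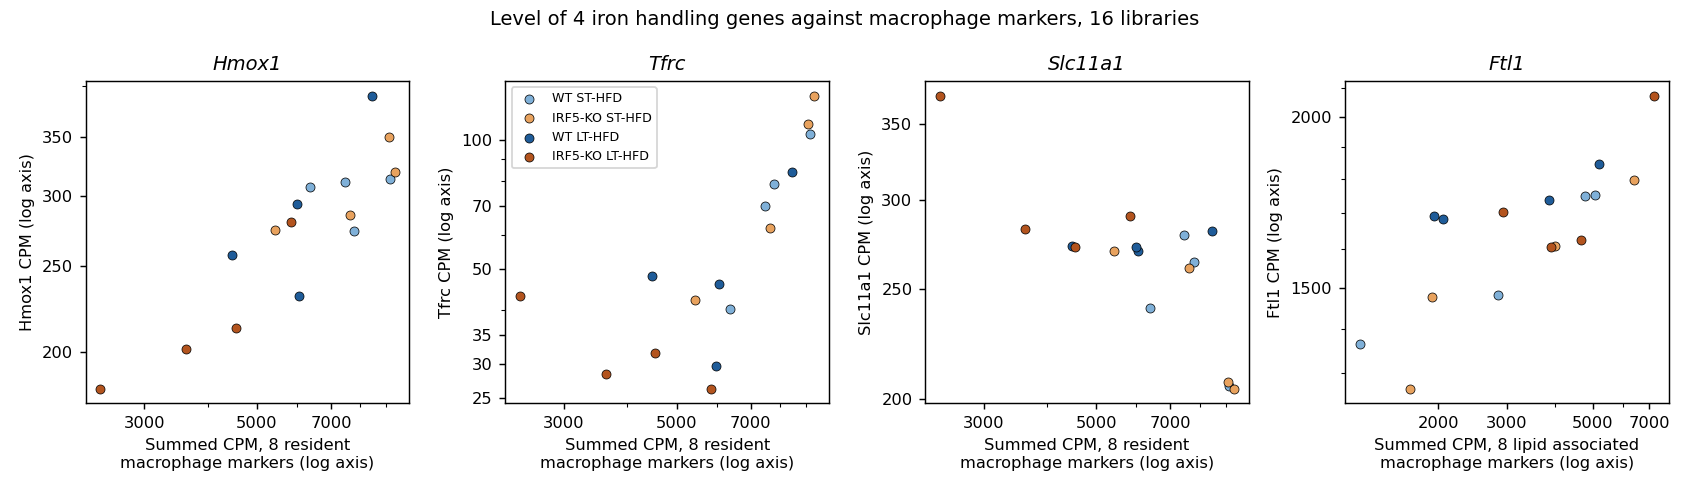
CPM of Hmox1, Tfrc, Slc11a1 and Ftl1 (log axes) against the summed CPM of 8 resident or 8 lipid associated macrophage markers, for 16 libraries coloured by group. Hmox1 and Tfrc are higher and Slc11a1 is lower where the resident markers are higher, and Ftl1 is higher where the lipid associated markers are higher.

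The genes whose levels across the 16 libraries were most like each iron gene are given as a description, by Pearson's r of log2 CPM among 9764 other genes whose mean count was 20 or more, with no test. For Hmox1 they were Cd209b (r = 0.94), Cd209d (r = 0.94) and Idh2 (r = 0.93). Cd209b and Cd209d encode C-type lectin receptors, and Idh2 the mitochondrial isocitrate dehydrogenase. For Tfrc they were Tnip2 (r = 0.93), Cdk12 (r = 0.90) and Rnf19b (r = 0.89). For Slc11a1 they were Aldoa (r = 0.93), Wrb (r = 0.93) and Creg1 (r = 0.92), of which Aldoa is a glycolytic enzyme and Creg1 a lysosomal glycoprotein. For Slc11a2, where the likeness was weakest, they were Skil (r = 0.81), Gm14636 (r = 0.77) and Rasa4 (r = 0.74). For Fth1 they were Eif3f (r = 0.93), Gnb1 (r = 0.92) and Cops5 (r = 0.88), and for Ftl1 Idh1 (r = 0.94), Pon2 (r = 0.93) and Asnsd1 (r = 0.93). Idh1 is the cytosolic isocitrate dehydrogenase and Pon2 an intracellular lactonase. For Slc40a1 they were Ip6k1 (r = 0.93), Ddr1 (r = 0.91) and Trim2 (r = 0.91). With the group means removed, the 21 values of r lay between 0.72 and 0.94. The genes were picked by r in these same 16 libraries, so these values are no separate check of the likeness.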

How the data were processed

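RNA of F4/80+ macrophages of epididymal fat was sequenced in 16 libraries (SMARTer stranded pico kit, 10 ng of RNA, 100 bp reads). The deposited values are raw counts per gene, which the authors made, per the study's methods, by aligning reads with STAR 2.7.3a to mm10. The submitters' processing notes also name fastp 0.19.11. The annotation release and strand setting of the counting are not given in the sources used here, so antisense and overlapping genes may share reads. Library totals were 3279332 to 4958131 counts, and all precision below rests on 4 libraries per group. Nothing in the labels says that libraries of a group came from separate mice, so p-values measure the spread between these libraries. The study's legend gives n = 4 per genotype for this sequencing, and its methods point to the legends for how many mice were used. All 120 pairs of libraries differed beyond sampling noise (lowest chi-square per degree of freedom 4.22), so none was counted as a copy.

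Counts were tested with edgeR 4.0.16 (R 4.3.3; filterByExpr, TMM factors, glmQLFit and glmQLFTest) over all genes that passed the filter, with Benjamini-Hochberg adjustment over all of them and a threshold of 0.05. All p-values not called permutation p are from this test. The genotypes were compared within each duration on its 8 libraries, and the durations and the interaction on all 16. CPM used TMM factors over the 16 libraries, and correlations used log2(CPM + 1). The code was tested on simulated data. Alternatives were DESeq2 1.42.0, other scaling factors, no filter, the 3 most abundant features left out, a replicate block, pseudogene counts added, other sets of libraries and each library left out.

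Members and gene lists were chosen with earlier results of these data known. Named genes are the 7 members, up to 10 other iron pathway genes per comparison with the smallest p among those that passed, 3 correlated genes per member, the markers and Irf5. The 4 further pathway genes that passed in IRF5-KO were named after their values were seen. Replicate numbers are shared between groups. The deviations of same-numbered WT and IRF5-KO libraries from their group means correlated at 0.382, 0.492, 0.182 and 0.299 on ST-HFD, which was taken as pairing since all 4 were over 0.1, from the data and not from the labels, although replicate 4 correlated higher with another number (0.480). Elsewhere they were not all over 0.1. The main ST-HFD test by genotype was fitted without this pairing, and the replicate block was an alternative. Over the 8 alternatives that left out no library, the block among them, the ST-HFD log2 fold change of Slc11a2 by genotype lay between 0.675 and 0.702. Transcripts for the hairpin search and the lengths came from GENCODE M21 (GRCm38), in which 32620 of the 37310 IDs were found.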

Additional observations from a re-analysis of the deposited data

Results flagged for a closer look

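Among 28 groups of 4 libraries, 1 value stood apart by Dixon's test: Hmox1 in WT ST-HFD replicate 3 was 274 CPM, where the next library of that group was at 307 CPM and the gap was 0.848 of the range, above the critical value for 4 libraries. Chance alone flags about 1 group in 20.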

How the results depend on the processing

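No result for the 7 genes in the comparison of durations within IRF5-KO changed direction, and the calls of Hmox1, Slc11a1 and Slc40a1 that depended on a setting or a library are given with the results. Of the genes tested by genotype on ST-HFD, 2 in place of 1 passed with DESeq2, with no filter on low counts, with all 16 libraries in the fit or with the replicate block. On LT-HFD, 7 passed with DESeq2, 6 with no filter and 0 with the replicate block in place of 2, and 0 to 2 when a library was left out. LT-HFD libraries share only a number: same-numbered deviations correlated at between -0.15 and 0.24, and each of these 4 was exceeded by a pair with another number. Across durations the same correlations ran from -0.39 to 0.37. The replicate block changed no other call of the 7 genes or of the pathway genes recomputed but that of Cd163 in WT (-0.98). Fech, Glrx5, Flvcr1 and Pcbp1 were not recomputed one by one. Of the 7 genes, 1 in place of 0 passed by duration in WT with no filter, and 0 to 1 with a library left out. By duration in IRF5-KO, leaving out a library gave 1 to 3 of the 7 genes (1 without ST-HFD replicate 3) and 9 to 18 pathway genes (9 without LT-HFD replicate 2).

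Values near 0 changed sign. With the replicate block, the LT-HFD difference by genotype was 0.011 for Slc40a1 and -0.0026 for Ftl1. Upper quartile factors, which moved the median of all genes to 0.10 in WT and 0.15 in IRF5-KO by duration, gave 0.038 for Hmox1 by duration in WT, and interactions of 0.025 for Slc40a1 and 0.025 for Fth1. The interaction was 0.12 for Slc40a1 with the block within duration and 0.00076 for Fth1 with no filter. With a library left out, differences by genotype on ST-HFD ran from -0.039 to 0.067 for Hmox1, -0.30 to 0.10 for Slc40a1, -0.10 to 0.014 for Fth1, -0.14 to 0.031 for Ftl1 and -0.045 to 0.43 for Tfrc. On LT-HFD they ran from -0.65 to 0.19 for Slc40a1, -0.093 to 0.052 for Ftl1 and -0.080 to 0.33 for Slc11a2. Hmox1 by duration in WT ran from -0.21 to 0.055, and interactions from -0.51 to 0.33 for Slc40a1, -0.067 to 0.043 for Fth1 and -0.035 to 0.14 for Ftl1. The cause was not tested. With 50 to 202 counts of Slc11a2 and 60 to 433 of Slc40a1 per library, smaller differences in these genes may have been missed.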
